A study of Mus musculus with 39 samples.

Results

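The dystrophin complex genes described here are 8 genes of the dystrophin-glycoprotein complex, Dmd, Utrn, Dag1, Sgca, Sgcb, Sgcd, Dtna and Nos1. They were chosen by name and matched to their Ensembl identifiers among the 46078 genes of the count files, and all 8 had enough reads to be tested. The libraries were made from gastrocnemius, a large muscle of the calf, of C57BL/6 mice. Lewis lung carcinoma (LLC) cells, a line from a mouse lung tumour used to study muscle wasting in cancer, or phosphate-buffered saline (PBS) had been injected into the hind flank at 8 weeks of age. The groups were PBS (8 libraries) and 7 days (8 libraries), 14 days (7), 21 days (7) and 28 days (8) of tumour growth, called weeks 1 to 4. The 38 libraries analysed come from 39 labelled samples, and week 3 replicate 2 is not analysed here. The sources used here do not say how old the PBS mice were at collection, and among the tumour groups age and tumour time cannot be told apart. The labels say nothing more of separate animals, so p-values measure only the spread between these samples, which may be technical.

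Dystrophin, the product of Dmd, ties the actin cytoskeleton under the muscle membrane to dystroglycan, which crosses the membrane and binds laminin in the basement membrane. Sarcoglycans brace dystroglycan within the membrane, and dystrobrevin and syntrophins gather signalling proteins at the inner face, among them the neuronal nitric oxide synthase. Loss of dystrophin or of a sarcoglycan leaves fibres prone to tearing during contraction and underlies muscular dystrophies, and utrophin is the relative of dystrophin that can stand in for it.

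Reads in genes numbered 13356756 to 24801565 per library. Sequencing lanes were unevenly spread over the groups. Week 4 came from lanes 2 (5 libraries) and 4 (3), and PBS from lanes 5 (5) and 6 (3), so that these groups shared no lane. Lane 2 also held 3 libraries of week 1, 1 of week 2 and 1 of week 3. Within weeks 1 to 3, 24.8% of 13974 genes differed between lane 2 and the other lanes (edgeR quasi-likelihood test, Benjamini-Hochberg adjusted p under 0.05, the threshold for calling a gene changed throughout). That count of 3472 genes was 1782 without week 2 replicate 3 and 2090 without week 3 replicate 8, both lane 2 libraries, and 1782 to 4247 over all libraries left out 1 at a time. The members' week 4 differences are therefore also given with a lane 2 term and without the lane 2 libraries. Read assignment was unusual in week 2 replicate 6 and week 3 replicates 1 and 3, with over 8% of reads in no gene. Week 1 replicate 7, which was left out with them, had 5.55% in no gene, near the median of 5.17%. The counts of members called against PBS were the same without these libraries. The muscle label fits the markers: 8 fibre genes such as Acta1 and Ckm summed to between 49966 and 163586 CPM (reads scaled to library size) in every library.

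The promoters of 3 members that were higher at week 4 are shown because reads counted per gene do not tell which start was used. They are those whose RefSeq window (250 bases before to 50 after the start, build GRCm38.p6) lies at the start of a long GENCODE transcript. The Dmd window is at chrX:82948620-82948919, plus strand, beside the start of a 14910-base transcript. The Utrn window is at chr10:12861686-12861985, minus strand, at the start of a 12382-base transcript. The Dag1 window is at chr9:108263909-108264208, minus strand, at the start of a 5662-base transcript. Capitals mark an E-box (CANNTG), a GC box (GGGCGG on either strand) or a TATA box (TATAAA on either strand).
Dmd: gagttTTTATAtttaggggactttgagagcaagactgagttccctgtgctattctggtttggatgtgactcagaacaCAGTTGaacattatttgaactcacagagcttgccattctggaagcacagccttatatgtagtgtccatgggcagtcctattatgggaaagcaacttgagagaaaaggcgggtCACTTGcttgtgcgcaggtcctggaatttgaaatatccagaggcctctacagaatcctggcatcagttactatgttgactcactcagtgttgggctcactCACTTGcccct
Utrn: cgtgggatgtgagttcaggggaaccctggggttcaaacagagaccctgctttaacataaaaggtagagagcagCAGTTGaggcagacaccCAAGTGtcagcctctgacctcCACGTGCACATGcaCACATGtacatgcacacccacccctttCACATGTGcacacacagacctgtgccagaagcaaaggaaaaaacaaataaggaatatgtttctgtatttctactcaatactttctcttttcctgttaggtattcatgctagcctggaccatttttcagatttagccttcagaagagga
Dag1: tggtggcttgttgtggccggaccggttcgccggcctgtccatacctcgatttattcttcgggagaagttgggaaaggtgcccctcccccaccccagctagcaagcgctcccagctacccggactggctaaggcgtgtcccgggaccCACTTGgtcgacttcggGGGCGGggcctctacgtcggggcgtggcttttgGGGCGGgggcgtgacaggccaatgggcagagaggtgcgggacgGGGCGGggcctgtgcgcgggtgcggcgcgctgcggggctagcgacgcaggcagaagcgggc
The Dmd window held 3 E-boxes and 1 TATA box, the Utrn window 7 E-boxes, some of which overlap, and the Dag1 window 1 E-box and 3 GC boxes. Of 32851 RefSeq windows of this length, 72.3% held an E-box, 35.7% a GC box and 13.6% a TATA box. Neither the N-box letters (TTCCGG, in 14.9% of windows) nor a MEF2-type motif (CTA and TAG with any 4 bases between, in 3.69%), searched on both strands, were in these windows. Another long Utrn transcript, of 11801 bases, starts at chr10:12869365, outside the window shown, and that start was not searched.

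The members differed widely in level. Per kilobase of exon merged over transcripts, and averaged over all 38 libraries, Sgca was highest at 88.0 ± 10.0 CPM per kb (SD), ahead of Dag1 at 47.5 ± 10.6 and Sgcb at 36.3 ± 4.92. Nos1 followed at 11.4 ± 4.8, then Dtna at 7.30 ± 0.986 and Dmd at 7.22 ± 1.70. Utrn at 3.14 ± 0.57 and Sgcd at 2.44 ± 0.706 CPM per kb were lowest. The neighbours Dag1 and Sgcb, Nos1 and Dtna, Dtna and Dmd, and Utrn and Sgcd had overlapping ranges of mean ± SD. Set against the longest transcript alone, Sgca, Dag1 and Sgcb stayed on top with 88.6, 53.3 and 38.9 CPM per kb, while Dtna moved to 19.6, above Nos1 at 12.6 and Dmd at 11.5. Sgcd, at 8.23, then lay above Utrn, at 4.34. Sgcd had the fewest reads, a median of 380.5 per library, against 2972.5 for Dmd.

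**Figure D1:**
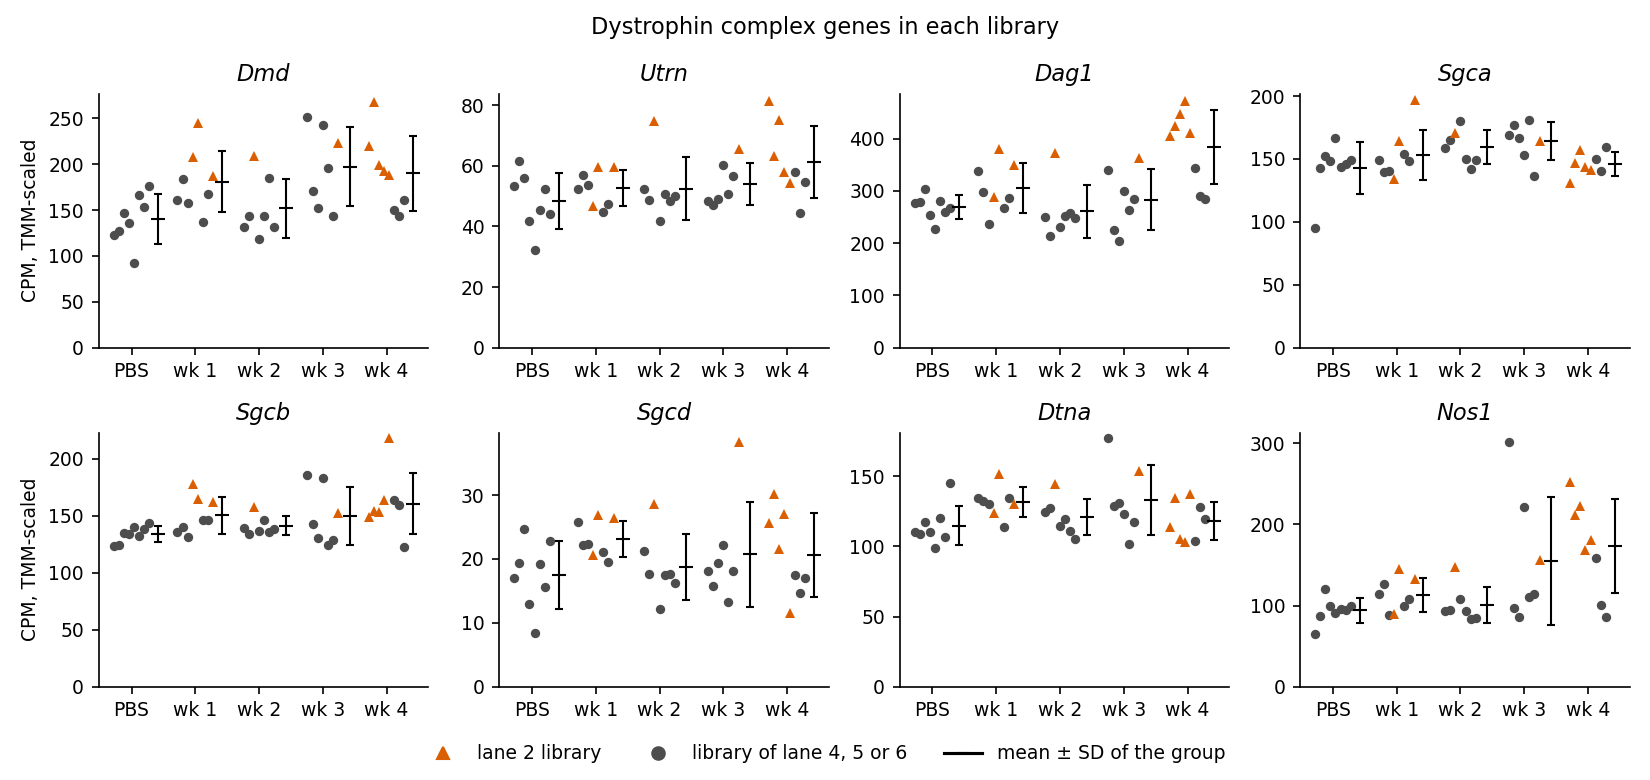
Each panel plots 1 gene in TMM-scaled CPM (vertical axis from 0) in PBS and tumour weeks 1 to 4. Points are libraries, triangles those of lane 2, and bars the mean and SD of a group; for Dmd, Dag1, Sgcb and Nos1 the 5 lane 2 libraries of week 4 all lie above the 8 PBS libraries.

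No member was called at weeks 1, 2 or 3 against PBS by edgeR, DESeq2 or limma voom, beside 0.0613%, 0.0% and 0.347% of 14689 genes called by edgeR. At week 2 no gene was called by edgeR (1143 at an unadjusted p under 0.05), 4 by DESeq2 and 11 by voom. At an unadjusted p under 0.05, edgeR counted 2 members at week 1, 0 at week 2 and 4 at week 3. The highest fold changes at week 3 belonged to Nos1, with a log2 value of 0.72 ± 0.22 (SE, adjusted p = 0.160), and Dmd, with 0.49 ± 0.15 (adjusted p = 0.174). At week 4 against PBS, 5 of the 8 members were called higher and none lower, beside 15.3% of all genes called higher and 29.4% called either way. These were Dmd, Utrn, Dag1, Sgcb and Nos1, while Sgca, Sgcd and Dtna did not pass. The median log2 fold change over the 8 members was 0.30, against -0.02 over all genes tested. Of 8 fibre markers, 4 were lower at week 4, beside 14.1% of all genes called lower, and the 8 summed to 83092 to 146375 CPM there, against 106039 to 147815 CPM in PBS. No fibre marker was called with a term for lane 2, with a term for every lane or without lane 2, and in lane 2 within weeks 1 to 3 fibre markers were called too, 3 lower and 1 higher, beside 13.5% of genes called lower. All 4 tested neutrophil markers were higher, with sums of 48.5 to 232 CPM at week 4, against 0.482 to 6.69 CPM in PBS. Their part in the members' differences was not tested. In bulk muscle, fewer cells of a type and less RNA per cell cannot be told apart. The authors' deposited table of week 4 over PBS lists 4 of these genes, Dag1, Nos1, Dmd and Sgcb, with log2 fold changes of 0.52, 0.82, 0.43 and 0.27.

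Dmd encodes dystrophin and spans chrX:82948870-85206141 (GRCm38, plus strand). In week 4 libraries it had a lowest level of 144 CPM, a median of 190 and a highest of 268, against 92.0, 141 and 177 CPM in PBS libraries. All 5 lane 2 libraries of week 4 lay above every PBS library, as they did for Dag1, Sgcb and Nos1 and for 9.55% of all genes, while the 3 of lane 4, at 144, 150 and 161 CPM, lay within the PBS range. The log2 fold change was 0.44 ± 0.14 (SE, edgeR adjusted p = 0.0208). The call was lost without week 4 replicate 2 (0.36, adjusted p = 0.0629) or PBS replicate 5 (0.37, adjusted p = 0.0526). From PBS through weeks 1 to 4 the mean levels were 140 ± 26.8, 181 ± 33.6, 152 ± 32.5, 197 ± 43.1 and 190 ± 40.9 CPM (SD). The week 3 and week 4 means were close, and no step between neighbouring weeks was called.

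Utrn encodes utrophin, which in adult muscle is held mostly at neuromuscular and tendon junctions and is also made in vessels (chr10:12382188-12869365, minus strand). It ran from 44.5 through a median of 57.9 to 81.4 CPM in week 4 libraries, against 32.1, 48.9 and 61.6 CPM in PBS libraries. Weeks 1, 2 and 3 averaged 52.6 ± 5.91, 52.5 ± 10.4 and 54.0 ± 7.06 CPM (SD), close to one another. The groups overlapped, with 3 of 8 week 4 libraries above every PBS library. The log2 fold change was 0.34 ± 0.12 (SE, edgeR adjusted p = 0.0310), the largest adjusted p of the 5 calls. It was lost without any 1 of 6 libraries, week 4 replicates 1 and 3 and PBS replicates 4, 5, 6 and 8, with adjusted p between 0.0508 and 0.0867. Of 6 endothelial markers, 3 were also higher at week 4, beside 15.3% of all genes called higher. With the lane 2 term 2 were called higher (beside 3.44%), and without lane 2 only 1 was (beside 0.736%). The summed level of the 6 ran from 278 to 468 CPM at week 4, against 236 to 327 CPM in PBS. Its part in the Utrn difference was not tested.

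Dag1 encodes dystroglycan, whose 2 cleaved chains carry the link from laminin to dystrophin (chr9:108204634-108263958, minus strand). Its lane 2 libraries of week 4 had 405, 424, 447, 473 and 410 CPM and its lane 4 libraries of week 4 had 344, 290 and 284 CPM. The PBS libraries lay between 227 and 304 CPM, with a median of 272. Thus 6 of 8 week 4 libraries lay above every PBS library. The log2 fold change was 0.52 ± 0.12 (SE, edgeR adjusted p = 0.00275), and leaving out any 1 library did not end the call. Weeks 1, 2 and 3 averaged 305 ± 47.3, 261 ± 51.2 and 283 ± 58.2 CPM (SD), and week 4 was called higher than week 3 (adjusted p = 0.0442), though not with a lane 2 term (adjusted p = 0.362).

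Among the sarcoglycans, which form a subcomplex bound to dystroglycan, Sgcb was higher at week 4 and the other members were not called. Sgcb (beta-sarcoglycan, chr5:73632749-73647790) had a lowest level of 123, a median of 157 and a highest of 218 CPM in week 4 libraries, against 124, 134 and 144 CPM in PBS libraries. In week 4, 7 of 8 libraries lay above every PBS library and replicate 8 lay below every one. The highest value belonged to week 4 replicate 5. The log2 fold change was 0.26 ± 0.09 (SE, edgeR adjusted p = 0.0284), and without that library it was 0.19 (adjusted p = 0.109); it was also lost without PBS replicate 2 (adjusted p = 0.0501). Sgca (alpha-sarcoglycan, chr11:94962791-94976327) averaged 146 ± 9.31 CPM at week 4 and 143 ± 20.8 CPM in PBS (SD), a log2 fold change of 0.03 ± 0.09. Sgcd (delta-sarcoglycan, chr11:46896253-47988969) averaged 20.6 ± 6.52 CPM at week 4 and 17.5 ± 5.25 CPM in PBS, a log2 fold change of 0.24 ± 0.20 with a coefficient of variation of 31.6% within week 4. The levels of Sgca overlapped between the groups, and its highest mean, 164 ± 15.1 CPM, was that of week 3. Sgcd was highest at week 1, with 23.1 ± 2.86 CPM, and no step between neighbouring weeks was called for either gene.

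Dtna encodes alpha-dystrobrevin, a relative of dystrophin that binds syntrophins (chromosome 18). It averaged 118 ± 13.8 CPM at week 4 and 115 ± 14.0 CPM in PBS (SD, n = 8 each). The log2 fold change was 0.04 ± 0.09, and the groups overlapped. Weeks 1, 2 and 3 averaged 131 ± 10.7, 121 ± 12.9 and 133 ± 25.1 CPM. In GENCODE, 90 exonic bases of Dtna are shared with an antisense gene, and the sources used here do not state whether counting used strand.

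Nos1 encodes the neuronal nitric oxide synthase, which dystrophin holds at the fibre membrane through syntrophin (chr5:117781032-117958840, plus strand). Its lane 2 libraries of week 4 had 253, 212, 223, 169 and 181 CPM, and its lane 4 libraries of week 4 had 159, 101 and 85.5 CPM. The PBS libraries ran from 64.8 through a median of 95.4 to 120 CPM. Most week 4 libraries were thus above the PBS range, and lane 4 replicates 7 and 8 were inside it. The log2 fold change was 0.88 ± 0.21 (SE, edgeR adjusted p = 0.00286), a 1.84-fold difference and the largest of the members, and no single library left out ended the call. Weeks 1, 2 and 3 averaged 113 ± 20.7, 101 ± 22.4 and 155 ± 79.2 CPM (SD). At week 3, replicate 1 (302 CPM) and replicate 5 (221 CPM) stood above the other 5 libraries (86.0 to 156 CPM). Nos1 is also made in neurons: 6 neuron markers summed to 0 to 1.07 CPM in any library. Of the exonic bases of Nos1, 2.40% are shared with an antisense gene whose median count was 0.

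**Figure D2:**
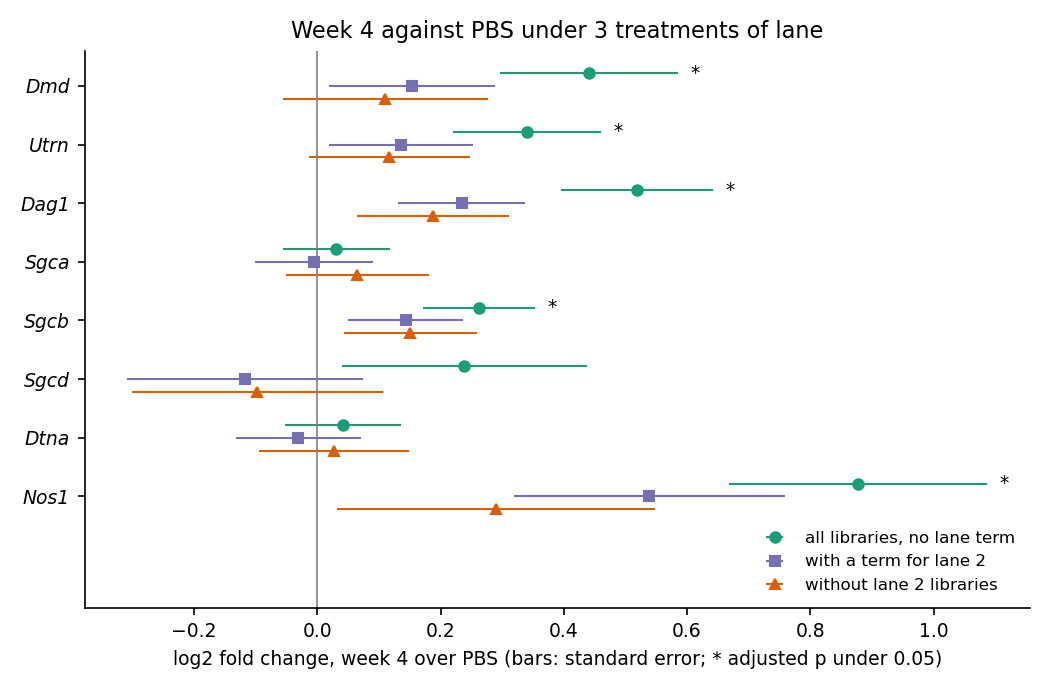
The horizontal axis is the log2 fold change of week 4 over PBS with its standard error for each of the 8 genes. Circles are fits of all libraries, squares add a lane 2 term and triangles drop the lane 2 libraries. Stars mark adjusted p under 0.05, and only circles carry one.

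The week 4 calls of all 5 members ended once lane was taken into account. With a term for lane 2, 0 members were called (edgeR, beside 5.64% of all genes; 2 members had an unadjusted p under 0.05). The log2 fold changes were then 0.54 ± 0.22 for Nos1 (SE, adjusted p = 0.124), 0.23 ± 0.10 for Dag1 (0.151), 0.15 ± 0.13 for Dmd, 0.14 ± 0.12 for Utrn and 0.14 ± 0.09 for Sgcb. Without the lane 2 libraries, which leaves 3 at week 4, no member was called (beside 0.894% of genes) and none had an unadjusted p under 0.05. The values without lane 2 were 0.29 ± 0.26 for Nos1, 0.19 ± 0.12 for Dag1 and 0.11 ± 0.17 for Dmd. With a term for every lane, no member was called either (beside 0.633% of genes), and 1 had an unadjusted p under 0.05. Because week 4 and PBS shared no lane, lane and tumour time cannot be told apart for these calls.

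Lane 2 was itself associated with the members within weeks 1 to 3, where 5 libraries stood against 17 of other lanes. Of the 8 members, 4 were called higher in lane 2 and none lower, beside 11.4% of genes called higher. These were Sgcd (log2 difference 0.55 ± 0.13, SE, adjusted p = 0.00396), Dag1 (0.39 ± 0.11, adjusted p = 0.00942), Utrn (0.30 ± 0.09, adjusted p = 0.0140) and Dmd (0.39 ± 0.12, adjusted p = 0.0193). Sgcd averaged 28.2 ± 6.39 CPM in lane 2 and 18.8 ± 3.47 CPM in other lanes (SD, n = 5 and 17), and Dag1 351 ± 36.3 CPM in lane 2 and 264 ± 39.5 CPM in other lanes. Each call rests on few libraries. Without week 2 replicate 3, Dag1, Dmd and Utrn were no longer called; Sgcd was lost without week 3 replicate 8, as was Utrn, and Dmd without week 1 replicate 5. Sgcb reached 0.19 ± 0.09 (adjusted p = 0.111) and Nos1 0.28 ± 0.21 (0.366), so Nos1, the member with the largest week 4 difference, was not called between lanes.

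Against weeks 1 to 3, which share lanes 2 and 4 with week 4, 2 members were called higher over all libraries, beside 16.6% of genes called higher and 29.2% called either way. Dag1 averaged 385 ± 70.8 CPM at week 4 and 284 ± 53.1 CPM over weeks 1 to 3 (SD, n = 8 and 22), a log2 difference of 0.45 ± 0.10 (SE, edgeR adjusted p = 0.00136). Nos1 averaged 173 ± 57.9 CPM at week 4 and 123 ± 51.3 CPM over weeks 1 to 3, with 0.52 ± 0.17 (adjusted p = 0.0198), and was lost without week 4 replicate 1 or 3. Markers of other cell types moved in the same comparison: 5 of 6 macrophage markers, all 4 tested neutrophil markers and 3 of 6 endothelial markers were called higher (median log2 differences of 0.85, 3.96 and 0.24), and 3 of 8 fibre markers were called lower, beside 12.5% of genes called lower. With the lane 2 term 2 macrophage, 4 neutrophil, 2 endothelial and 0 fibre markers were called. The macrophage markers summed to 52.7 to 131 CPM at week 4, against 35.1 to 56.3, 35.8 to 64.3 and 51.9 to 99.0 CPM at weeks 1, 2 and 3. At week 4 against PBS, 0 of the 6 macrophage markers were called. Their sums in PBS ran from 32.7 to 283 CPM with a median of 48.1, against a median of 94.6 at week 4. The part of these marker sets in the differences of Dag1 and Nos1 was not tested. Dag1 was still called with a term for lane 2 (0.26 ± 0.08, adjusted p = 0.0234, beside 14.8% of genes) and with a term for every lane (0.27 ± 0.09, adjusted p = 0.0407, beside 11.4%). It was not called when only lanes 2 and 4 were kept with a lane term (0.24 ± 0.08, adjusted p = 0.0568) or without lane 2 (0.20 ± 0.11, adjusted p = 0.674, beside 0.598% of genes called). Week by week, Dag1 was called higher at week 4 against weeks 1, 2 and 3 (log2 differences of 0.33, 0.56 and 0.44) and Nos1 against weeks 1 and 2 (0.61 and 0.78), beside 22.6%, 23.6% and 3.51% of genes called either way. The authors' deposited tables list Dag1 for week 4 over week 2 (log2 fold change 0.53) but not over weeks 1 or 3, and they list Nos1 over weeks 1 and 2 (0.57 and 0.71). Against week 2 the Dag1 call also held with the lane 2 term (0.35 ± 0.10, adjusted p = 0.0228) and with a term for every lane (0.36 ± 0.11, adjusted p = 0.0398), but not without lane 2 (0.33 ± 0.13, adjusted p = 0.376). The other week-by-week calls of Dag1 and Nos1 did not pass with the lane 2 term. Neither week 2 against week 1 nor week 3 against week 2 gave a member by edgeR (beside 0.0477% and 0.429% of genes; 0 and 2 members at an unadjusted p under 0.05).

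Within lane 2, Nos1 lay 0.61 ± 0.22 higher at week 4 on the log2 scale (SE, 5 against 5 libraries, edgeR adjusted p = 0.0561) and Dag1 0.28 ± 0.10 higher (adjusted p = 0.0565), both just short of the threshold, which 20.7% of genes passed. Dmd differed by -0.03 ± 0.15, Sgca by -0.23 ± 0.11 and Dtna by -0.27 ± 0.11 there. Within lane 4 (3 against 7), Nos1 differed by -0.11 ± 0.24 and Dag1 by 0.19 ± 0.11, and edgeR called no gene at all there (0.0%; 740 at an unadjusted p under 0.05, 9 by DESeq2, 0 by voom). The lane difference of the week 4 change was tested as an interaction and edgeR called no gene for it (0.0% of 15033; 1855 at an unadjusted p under 0.05, 26 by DESeq2, 3 by voom), while no tool called a member. For Nos1 it was 0.71 ± 0.33 (adjusted p = 0.386).

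**Figure D3:**
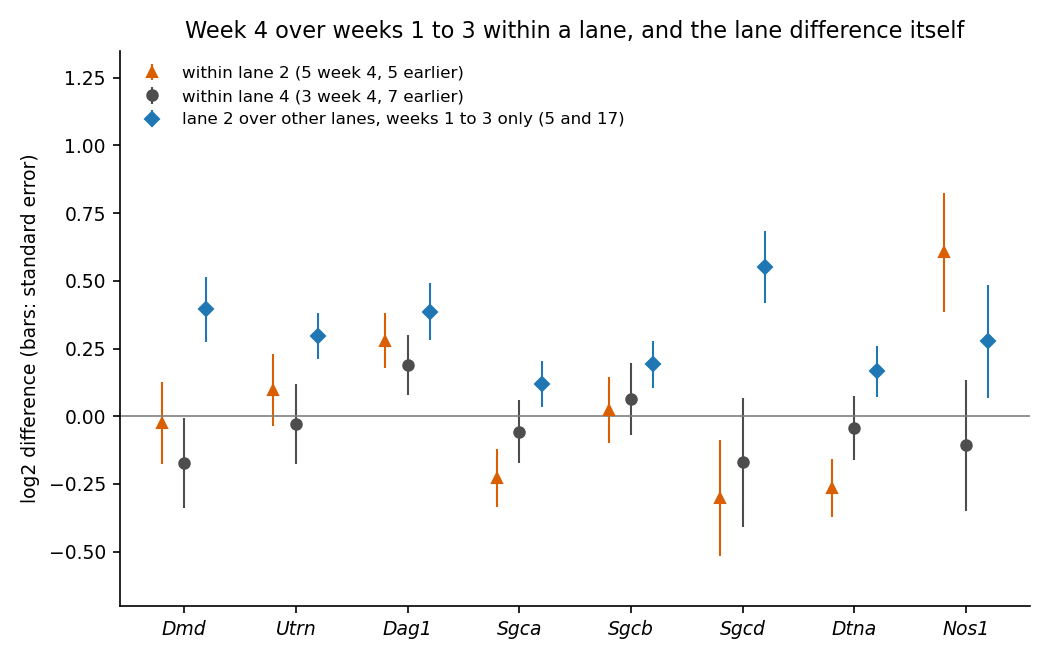
Log2 differences with standard errors for the 8 genes: week 4 over weeks 1 to 3 within lane 2 (triangles), the same within lane 4 (circles), and lane 2 over the other lanes within weeks 1 to 3 (diamonds). The diamonds of Sgcd, Dmd, Dag1 and Utrn are the 4 that passed the threshold, and the Nos1 points of the 2 lanes lie on different sides of 0.

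The lane difference followed gene length, taken as exon merged over transcripts. By this measure 6 of 8 members have over 6 kb of exon (Dmd 23.8 kb, Utrn 17.1 kb, Dtna 16.9 kb, Nos1 11.2 kb, Sgcd 8.26 kb, Dag1 6.36 kb). The longest single transcripts of Dtna, Dag1, Sgcb and Sgcd have only 6295, 5662, 3786 and 2450 bases, and genes were not binned by transcript length. Over all genes, the median log2 difference of lane 2 over other lanes within weeks 1 to 3 was -0.56 under 1 kb of exon and 0.21 over 8 kb. Week 4 over PBS gave -0.34 and 0.18 in the same bins, and 30.6% of genes over 8 kb were called higher. With the lane 2 term these became -0.09 and 0.05. Nos1, at 0.88, lay well beyond the upper quartile of its bin (0.40), and Dag1, at 0.52, beyond that of genes of 4 to 8 kb (0.29), while Dmd and Utrn lay near it. Sgca, with 1.74 kb of exon, lay above the median of its bin (-0.31) although its level hardly differed. Between lanes Sgca differed by 0.12, where the median of its bin was -0.34. Dtna, at 0.04 over PBS and 0.17 between lanes, lay below the medians of its bin (0.18 and 0.21). The bin of 4 to 8 kb, where its longest transcript would fall, had medians of 0.04 and 0.08. What sets the length trend was not tested.

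**Figure D4:**
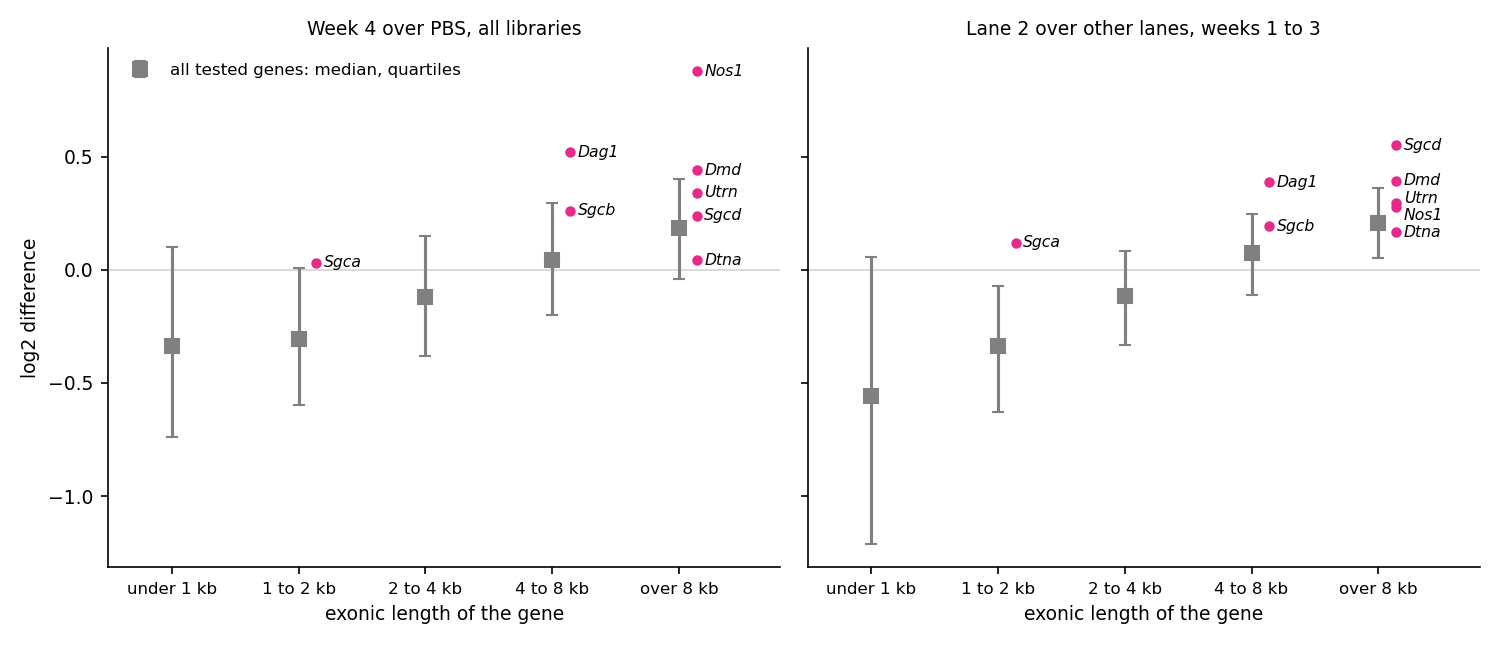
Squares and bars give the median and quartiles of the log2 difference over all tested genes in bins of exonic length, for week 4 over PBS (left) and lane 2 over other lanes within weeks 1 to 3 (right); the labelled dots are the members. In both panels medians climb with length, from -0.34 to 0.18 on the left and from -0.56 to 0.21 on the right.

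Ratios between members compare genes within 1 library, as counts per exonic kilobase, and are given without a test. Nos1 to Dmd averaged 1.92 ± 0.462 at week 4 and 1.47 ± 0.329 in PBS (SD, n = 8 each), with ranges of 1.14 to 2.45 and 1.13 to 2.11. Its week 4 average was 2.09 in lane 2 and 1.63 in lane 4, against 1.34 and 1.54 there at weeks 1 to 3. Dtna to Dmd averaged 0.903 ± 0.20 at week 4 and 1.17 ± 0.166 in PBS, but 0.791 in lane 2 and 1.09 in lane 4 of week 4. The relation of utrophin to dystrophin, whose balance matters in dystrophic muscle, overlapped between groups: 0.454 ± 0.0721 at week 4 and 0.490 ± 0.110 in PBS. Sgca to Sgcb averaged 2.18 ± 0.425 at week 4 and 2.49 ± 0.303 in PBS.

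**Figure D5:**
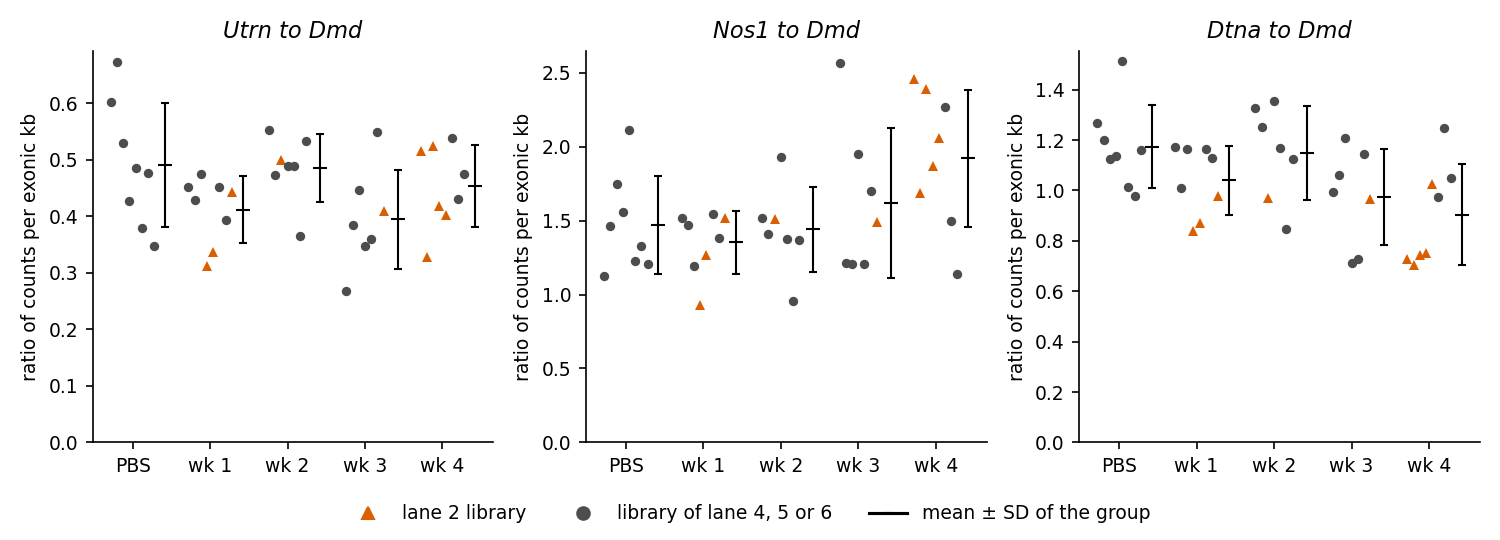
Ratios of counts per exonic kilobase of Utrn, Nos1 and Dtna to Dmd in each library of PBS and weeks 1 to 4 (vertical axes from 0), with group mean and SD and lane 2 libraries as triangles. The lane 2 libraries of week 4 average 2.09 for Nos1 to Dmd, against 1.34 for those of weeks 1 to 3. In lane 4 these averages are 1.63 and 1.54.

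Of 8 tested genes in the rest of the complex, 1 was lower and 0 higher at week 4 against PBS, where 15.3% of all genes were called higher and 14.1% lower, 29.4% in all. Cav3, which encodes the caveolin of muscle caveolae and binds dystroglycan, averaged 30.8 ± 9.84 CPM at week 4 and 44.8 ± 6.97 CPM in PBS, a log2 fold change of -0.54 ± 0.15 (SE, edgeR adjusted p = 0.0070). It did not pass with the lane 2 term (-0.35, adjusted p = 0.128). Against weeks 1 to 3, Cav3, Sspn (sarcospan) and Sntb1 (a syntrophin) were lower, with log2 differences of -0.50, -0.29 and -0.53. Of all genes, 12.5% were called lower there. With the lane 2 term Cav3 and Sntb1 were still lower, beside 6.32% of genes called lower. With a term for every lane 1 gene of the list was called, and without lane 2 there were 0. Sgce (a further sarcoglycan), Sntb2 (a syntrophin) and Dtnb (beta-dystrobrevin) were not called in either comparison, with log2 fold changes over PBS of -0.23, 0.22 and -0.16.

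Of 17 tested genes that build the sugar chains of dystroglycan, 1 was higher and 4 lower at week 4 against PBS, a share close to the 29.4% of all genes called there. Pomt2, part of the first mannosyltransferase, had a log2 fold change of 0.39 ± 0.11 (SE, edgeR adjusted p = 0.0104). Gmppb, which makes the mannose donor, had -0.76 ± 0.20 (adjusted p = 0.00499), and Pomgnt2, -0.40 ± 0.12 (adjusted p = 0.011), the 1 gene of the list still lower with the lane 2 term (-0.46). Of 13 basement membrane genes, 6 were higher, beside 15.3% of all genes, and 0 lower, and with the lane 2 term 0 were called. Agrn (agrin, 0.46), Lama5 (a laminin chain, 0.63) and Col4a2 (a type IV collagen chain, 0.67) led these, and 8 of the 13 were also higher in lane 2 within weeks 1 to 3.

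Integrins form the other link of the fibre to its matrix, and of 10 tested genes 2 were higher and 1 lower at week 4 against PBS, again close to the share of all genes. Tln1 (talin, 0.69 ± 0.17, SE) and Vcl (vinculin, 0.53 ± 0.16) were higher and Itgb1bp2 (melusin, -0.74 ± 0.25) was lower, and no gene of the list was called with a term for lane 2, with a term for every lane or without lane 2. In the subsarcolemmal cytoskeleton 3 of 12 genes were higher and 2 lower, beside 15.3% and 14.1% of all genes. In lane 2 within weeks 1 to 3, 5 of 12 were called higher and 2 lower, beside 11.4% and 13.5% of genes. Flnc, which encodes the muscle filamin that binds sarcoglycans, averaged 1862 ± 1089 CPM at week 4 and 675 ± 137 CPM in PBS, with 1.46 ± 0.28 (edgeR adjusted p = 0.000394), and it and Ank3 (an ankyrin, 0.96 ± 0.18) were still called with the lane 2 term, at 1.11 and 0.53. Flnc and Ank3 were not called without lane 2 (0.67 and 0.43). Among 11 genes of nitric oxide signalling and syntrophin partners, Nos3 (the endothelial synthase, 0.49) and Prkg1 (a cGMP-dependent kinase, 0.76) were higher and Dynll1 (a dynein light chain that binds Nos1, -0.76) lower. Of 11 membrane repair genes, Ahnak (0.64) and Dysf (dysferlin, 0.45) were higher and Anxa5 (an annexin, -0.78) lower, and none of these 6 passed with the lane 2 term. Both lists of 11 had 3 genes called, near the 29.4% of all genes.

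Genes whose levels tracked a member most closely were sought among 9074 genes by Spearman correlation over the 38 libraries, which share lane and group differences. For Dmd these were Mga (0.85, and 0.77 over the 28 libraries outside lane 2), Trip12, Ncor1, Rb1 and Zfp644. For Utrn they were Reep3 (0.85, and 0.82 outside lane 2), Sptbn1, Slit3, Lrp1 and Jcad. For Nos1 they included Eif4g3 (0.91, and 0.83 outside lane 2), Sim2, Mta1 and Hdlbp. These genes have from 3.10 kb (Mta1) to 17.7 kb (Lrp1) of exon. The part of gene length in the correlations was not tested.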

How the data were processed

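Libraries were prepared with a TruSeq RNA kit from Trizol extracts of frozen muscle, per the labels' protocols. The gene counts were deposited by the authors and, per the submitters' processing notes, rest on FastQC, HISAT2, HTSeq and GRCm38.p5. The sources used here give no versions, annotation release or strand setting. The authors' deposited tables hold log2 fold changes, their standard errors, p-values and adjusted p-values from DESeq2, per the file headers and the submitters' processing notes.

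Names, exon lengths and coordinates came from GENCODE M21 (GRCm38), which covers 45143 of the 46078 genes. Reads of no single gene (44.5% to 80.9% of all reads were in genes) stayed out of library sizes. The test was that of edgeR 4.0.16 (R 4.3.3), with TMM factors, a filterByExpr minimum count of 10, which left 14689 genes, quasi-likelihood fits of all 5 groups with group as the factor, and Benjamini-Hochberg adjustment over all genes. Standard errors were computed as the size of the log2 fold change divided by the square root of the F statistic. CPM values use TMM-scaled library sizes. Lanes were read from the file names. The fit was tested on simulated data for week 4 against PBS, drawn with the same spread for every gene and no lane difference. It recovered 9 of 67 genes changed 1.4-fold (13.4%), 58 of 67 changed 2-fold and all 66 changed 4-fold. It also called 9 unchanged genes. These figures therefore do not cover the lane differences between the real week 4 and PBS libraries. No library duplicated another (chi-square per degree of freedom of at least 14.2 within groups).

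Alternatives were RLE and upper quartile factors, no filter, a mean of at least 5 CPM, DESeq2 1.42.0, limma 3.58.1 voom with quality weights, lane terms, subsets of libraries, leaving out single libraries, and a fold threshold of 1.5. Named were the 8 members, all tested genes of the rest of the complex, the 3 of smallest p at week 4 in each other list, and the 5 closest patterns to Dmd, Utrn and Nos1, leaving out predicted-gene names. Some genes that this rule names are counted with their lists but not reported here by name. Members and lists were chosen with earlier results of these data known.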

Additional observations from a re-analysis of the deposited data

Results flagged for a closer look

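Of 40 sets of values (8 genes in 5 groups), 7 held a library whose gap to its neighbour passed Dixon's 95% limit, and chance gives about 1 in 20. Week 2 replicate 3, the lane 2 library of its group, was highest for Utrn (74.9 CPM, the others 41.8 to 52.4), Dag1 (372 CPM, the others 214 to 258) and Nos1 (148 CPM, the others 82.9 to 107). Week 3 replicate 8, the lane 2 library of that group, was highest for Sgcd (38.3 CPM, the others 13.2 to 22.1). Week 4 replicate 5, also of lane 2, was highest for Sgcb (218 CPM, the others 123 to 164). PBS replicate 1 was lowest for Sgca (95.05 CPM, the others 142 to 167), and its 6 macrophage markers summed to 283 CPM, the highest of any library. PBS replicate 8 was highest for Dtna (146 CPM, the others 99.1 to 120).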

How the results depend on the processing

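At week 4 against PBS, 5 members were called over all libraries, 3 with no low-count filter or only the groups compared, 1 with a change of at least 1.5 times, and 0 with a term for every lane, a term for lane 2 or without lane 2. Genes called were 4315 over all libraries, 93, 829 and 136 in those lane settings, in that order, and 2013 at 1.5 times. Against weeks 1 to 3, 2 members were called, 4 by limma voom, 1 with either lane term, and 0 without lane 2, in shared lanes only or at 1.5 times. Genes called there were 4285 over all libraries, 6489 by voom, 1676 with every lane, 2176 with lane 2, 91 without lane 2, 1301 in shared lanes and 1501 at 1.5 times. Any difference among groups held for 3 members (edgeR F test, beside 21.9% of genes). It held for 0 with every lane (beside 4.85%), 1 with the lane 2 term (beside 11.2%, a like share) and 0 without lane 2 (beside 1.6%). The Dmd call of this F test over all libraries was lost without any 1 of 16 libraries. The lane test gave 4 members, 7 by voom and 0 at 1.5 times, with 5325 genes by voom and 1331 at 1.5 times. With 1 library left out, members called ranged from 3 to 5 (week 4 against PBS), 1 to 3 (against weeks 1 to 3) and 1 to 5 (lane test), and genes called against weeks 1 to 3 from 2450 (without week 4 replicate 5) to 5301. Called genes whose sign turned without lane 2 included Nos1 (-0.014) and Vcl (-0.060) against weeks 1 to 3 and Prkg1 (-0.22) against PBS. Of the 8 members, called or not, those with a positive difference against weeks 1 to 3 fell from 5 to 3 without lane 2. They fell to 4 with either lane term. Against PBS they fell from 8 to 7 without lane 2 or with a term for every lane, and to 5 with the lane 2 term. The cause was not tested. RLE or upper quartile factors, the 5 CPM filter and DESeq2 kept every count of members. So did leaving out the libraries of unusual read assignment together with week 1 replicate 7. No paired analysis was possible because the replicate numbers used here only name libraries in accession order. No sample number that the labels give to week 3, week 4 or PBS recurs in another group, and the few of week 2 that recur in week 1 carry an added letter there.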
